A study of Arabidopsis thaliana with 3 samples.

Results

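UDP-dependent glycosyltransferases (UGTs) move a sugar, usually glucose, from a UDP-sugar onto small molecules such as phenylpropanoids, flavonoids, hormones and defence compounds. The transfer changes how a compound dissolves, is stored and acts, and plant UGTs are numbered into families by the similarity of their proteins. In lignifying stems some of them glucosylate lignin precursors, and others control pools of auxin, cytokinin, abscisate and salicylate. The genes described here are those measured as spots with 1 listed gene whose symbol is UGT followed by a number. UGT79B1, UGT78D1, UGT78D2 and UGT75C1, which act in anthocyanin and related flavonoid synthesis, were left out. This gave 43 genes of the 9253 measured, each with 1 spot, out of 56 genes with such a symbol in the gene table of assembly TAIR10.1. They were picked by name and not by any measured value, though the set was chosen with earlier results of these data known.

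RNA of nst1-1 nst3-1 Arabidopsis thaliana was compared with wild-type RNA on 3 two-colour arrays, 1 for each of 3 mutant samples, called lines 1, 2 and 3. Both genotypes were sampled at the lowest 4 cm of inflorescence stems 12 to 17 cm tall, from untreated plants grown in days of 8 h light and 16 h dark, with no plant age given in the labels. The mutant carries T-DNA insertions in NST1 and NST3, genes for NAC transcription factors of secondary wall formation. The labels describe it as unable to make secondary xylem in stem and hypocotyl. The allele names do not differ between the lines, which are therefore treated as samples of 1 genotype and not as separate insertion events.

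Every value below is a log2 ratio of mutant over wild type, so 1 is 2-fold higher and -1 is 2-fold lower in the mutant. The deposited values were taken to be ratios with Cy5 on top, and to be log10 because they stop at -2, a 100-fold ratio on that scale. Neither the base nor the direction is stated with them, and with Cy3 on top every sign below would turn. The measured xylem markers given below would then be higher in a mutant described as unable to make secondary xylem. Mutant RNA was labelled with Cy5 for lines 1 and 3 and with Cy3 for line 2, so the values of line 2 were turned. Transcripts of NST1 and NST3 themselves had no listed spot and were not analysed here. Of the xylem markers, 2 of 10 were measured and both fell, IRX15 (-2.14 ± 0.23) and IRX15-L (-1.43 ± 0.07; SD, n = 3 lines). Across genes, lines 2 and 3 were more alike (Pearson r = 0.784) than line 1 was to line 2 (0.488) or line 3 (0.477), so values without line 1 are given beside the results that it moves most.

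The UGT genes had mean ratios on both sides of 0, within 0.25 of it for 24 of the 43 (55.8%, against 62.8% of all genes). The median size of the mean ratio, without its sign, was 0.199, against 0.171 over all genes. The mean ratio was over 0 for 27 (62.8%, against 52.0% of all genes) and under 0 for 16. The median over the 43 was 0.046, against 0.013 over all genes. By limma, with p-values adjusted by Benjamini-Hochberg over all genes and a threshold of 0.05, 1 UGT gene fell and 0 rose. The background was 2.6% of all genes lower and 0.789% higher, or 3.39% in either direction. The 1 of 43 is 2.33%, so the count of lower genes was near the background. At an unadjusted p under 0.05, limma passed 6 of the 43 (14.0%), against 25.8% of all genes. The 6 were 1 higher gene (2.33%, against 13.9%) and 5 lower ones (11.6%, against 11.9%).

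**Figure D1:**
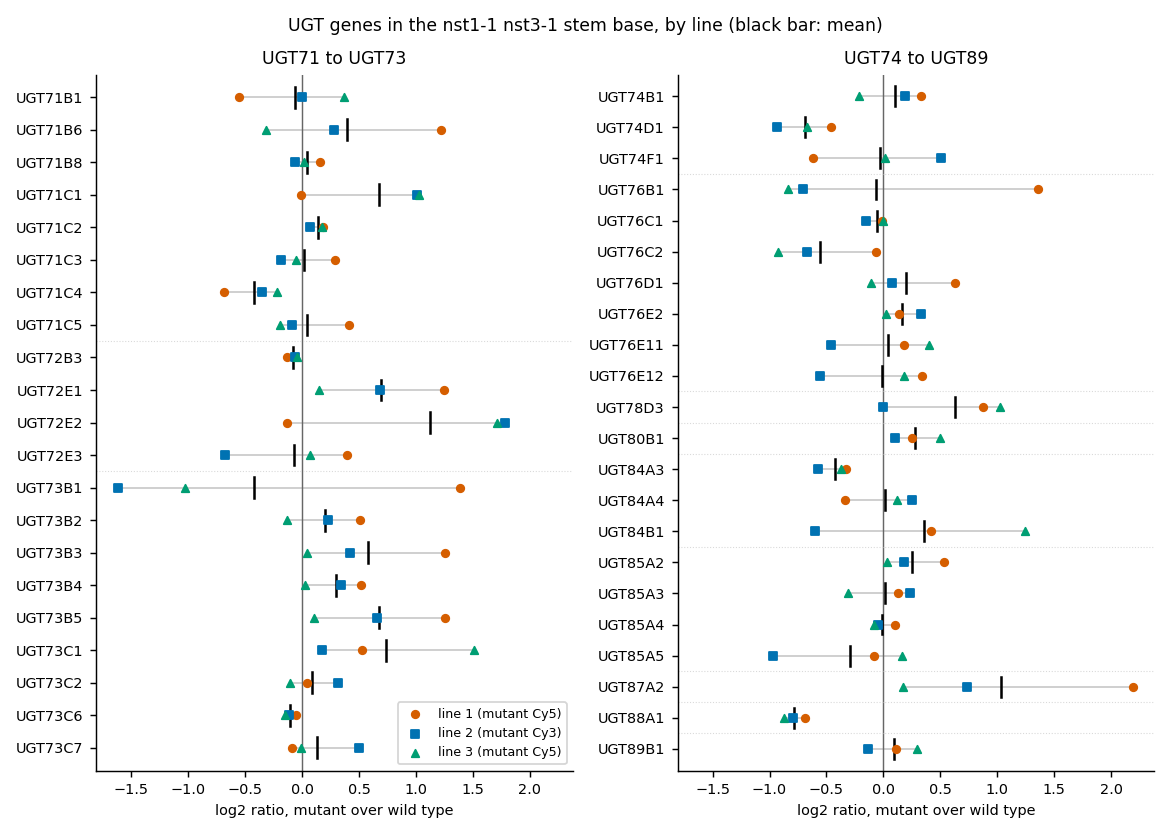
Log2 ratio of mutant over wild type (horizontal axis) for each of the 43 UGT genes in lines 1, 2 and 3, ordered by family number, with a black bar at the mean and dotted lines between families. UGT88A1 has 3 points close together and below 0, while UGT73B1 and UGT76B1 have line 1 above 0 and lines 2 and 3 below it.

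UGT88A1 (AT3G16520) was the gene that fell. It is the 1 gene with the number 88 in the gene table. Its ratios were -0.69, -0.79 and -0.88 in lines 1, 2 and 3, so every line was lower in the mutant by a similar amount. The mean was -0.79 ± 0.09 (SD, n = 3 lines), or 1.73-fold lower, with a 95% interval of -1.02 to -0.56 and a limma adjusted p of 0.0391. It was also the 1 UGT gene at least 1.5-fold lower on every array, against a background of 3.2% of all genes. No UGT gene was at least 1.5-fold higher on every array, where the background was 1.12%. In these whole stem bases, fewer cells of a type and less RNA per cell cannot be told apart. The call was lost without line 2 (-0.78, limma adjusted p = 0.28), without line 3 (-0.74, 0.224) and with a dye term (-0.79, 0.198), fits in which limma called no gene at all.

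UGT74D1 (AT2G31750), whose enzyme glucosylates auxins and their oxidised forms, came next without passing. Its ratios were -0.46, -0.93 and -0.67 in lines 1, 2 and 3, all below 0. The mean was -0.69 ± 0.24 (SD, n = 3 lines; limma adjusted p = 0.0661, and 0.0388 without line 1). UGT84A3 (AT4G15490), whose enzyme makes glucose esters of hydroxycinnamic acids, had a mean of -0.43 ± 0.13 and a limma adjusted p of 0.0851. UGT76C2 (AT5G05860), which N-glucosylates cytokinins, measured -0.06, -0.67 and -0.92, close to 0 in line 1 and below it in lines 2 and 3. Its mean was -0.55 ± 0.44, with a limma adjusted p of 0.184, and 0.0385 without line 1. The fit without line 1 passed 12.5% of all genes. Neither UGT74D1 nor UGT76C2 passed without line 2 (limma adjusted p = 0.294 and 0.482) or without line 3 (0.265 and 0.528).

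The spread between lines was wide among the UGT genes. Their median SD over the 3 lines was 0.320, against 0.184 over all genes, and their median moderated standard error was 0.149 against 0.105. At that median error a UGT gene needed a mean change of about 2.15-fold to pass the test. UGT72E2 alone had a mean of that size. A gene with the median error of all genes needed 1.71-fold. The 95% interval held 0 for 37 of the 43 genes. The interval lay within 2-fold either way for 28 of the 43 and within 1.5-fold for 17 of the 43, each interval taken singly. For the other genes a change of that size was neither shown nor left outside the interval.

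**Figure D2:**
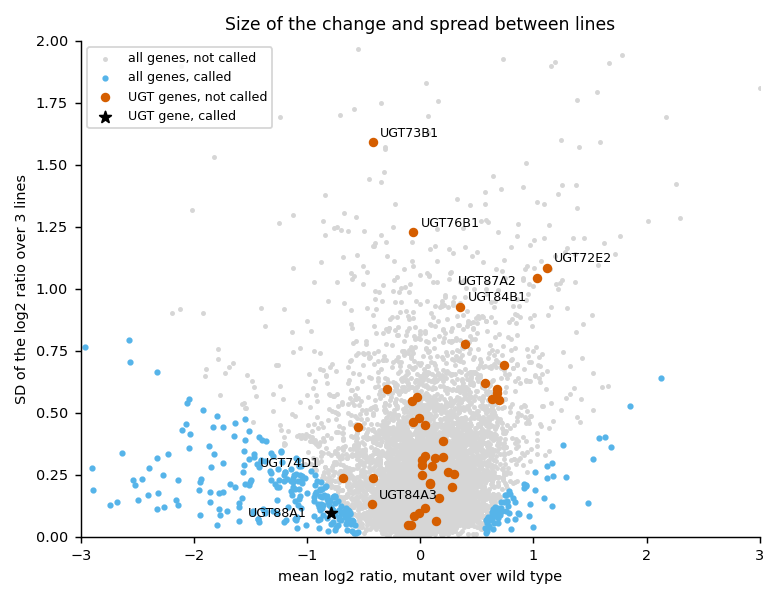
Mean log2 ratio of mutant over wild type (horizontal axis) against its SD over the 3 lines (vertical axis). All genes and the 43 UGT genes are shown. Outside the axes lie 19 genes, none of them among these 43. UGT88A1 sits among the called genes of small SD, and the UGT genes with means of about 1, UGT72E2 and UGT87A2, have SDs over 1.

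Line 1 stood apart for several UGT genes. It differed by over 2-fold from the mean of lines 2 and 3 for 7 of the 43 (16.3%), against 6.16% of all genes. Line 1 had the highest of the 3 ratios for 24 UGT genes (55.8%, against 43.3% of all genes) and the lowest for 8 (18.6%, against 36.3%). Across the 43 genes, which share the arrays and are not replicates, the Pearson correlation of ratios was 0.542 between lines 2 and 3, 0.119 between lines 1 and 2, and 0.00027 between lines 1 and 3. These compare with 0.784, 0.488 and 0.477 over all genes.

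UGT73B1 (AT4G34138) had the widest spread, with 1.39, -1.62 and -1.03 in lines 1, 2 and 3. UGT76B1 (AT3G11340), which glucosylates isoleucic acid, salicylate and N-hydroxypipecolate in defence, likewise measured 1.36, -0.70 and -0.83. Both were higher in the mutant in line 1 and lower in lines 2 and 3, and their means of -0.42 ± 1.59 and -0.06 ± 1.23 describe no line. Without line 1, limma passed both, UGT73B1 at -1.32 (adjusted p = 0.0407) and UGT76B1 at -0.77 (adjusted p = 0.0332). That fit keeps the 2 arrays most alike, and it passed 12.5% of all genes. Without line 2 the values of UGT73B1 and UGT76B1 were 0.18 and 0.26, and without line 3 they were -0.12 and 0.33. Neither gene passed in those fits (limma adjusted p from 0.851 to 0.974).

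In the opposite direction, UGT72E2 (AT5G66690) measured -0.13 in line 1, against 1.78 in line 2 and 1.71 in line 3. UGT71C1 (AT2G29750), which acts on caffeate and hydroxycoumarins in vitro, was at -0.01, 1.01 and 1.02 (named after its values were seen). Both were near 0 in line 1 and at least 2-fold higher in the mutant in lines 2 and 3. Without line 1, limma passed UGT72E2 at 1.75 (adjusted p = 0.0178) and UGT71C1 at 1.02 (adjusted p = 0.0223). In all, 7 UGT genes passed in that fit (16.3%, against 12.5% of all genes). They were 2 higher (4.65%, against 6.2%) and 5 lower (11.6%, against 6.3%), the lower ones being UGT73B1, UGT74D1, UGT76B1, UGT76C2 and UGT88A1. The fit rests on only 2 arrays, those most alike.

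Elsewhere line 1 was high and the others were nearer to 0. UGT87A2 (AT2G30140), a gene of flowering time, measured 2.19, 0.73 and 0.17 in lines 1, 2 and 3. UGT73B3 and UGT73B5, both active in the response to pathogens, measured 1.26, 0.43 and 0.04, and 1.26, 0.66 and 0.10. All 3 lines were above 0 for these genes, but the sizes differed widely, with means of 1.03 ± 1.04, 0.57 ± 0.62 and 0.67 ± 0.58 and limma adjusted p-values of 0.234, 0.265 and 0.196. Without line 1 the means of UGT87A2, UGT73B3 and UGT73B5 were 0.45, 0.23 and 0.38, and none passed (limma adjusted p = 0.181, 0.297 and 0.226). UGT71B6, which glucosylates abscisate, had a mean of 0.40 ± 0.78, and of -0.02 without line 1. Of the other tissue markers, the phloem gene SWEET11 measured 2.28, 0.16 and -0.50, also highest in line 1, while CLE41 was highest in line 3. Of the green cortex markers, 3 of 10 were measured and 1 was called, LHCB4.3, which fell with -0.80, -0.88 and -0.57 in lines 1, 2 and 3 (limma adjusted p = 0.0483). LHCB4.1 measured -0.36, -1.18 and -1.05, and LHCB4.2 measured 0.10, -0.94 and -1.05, both highest in line 1. The part of other tissues in the UGT values was not tested.

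**Figure D3:**
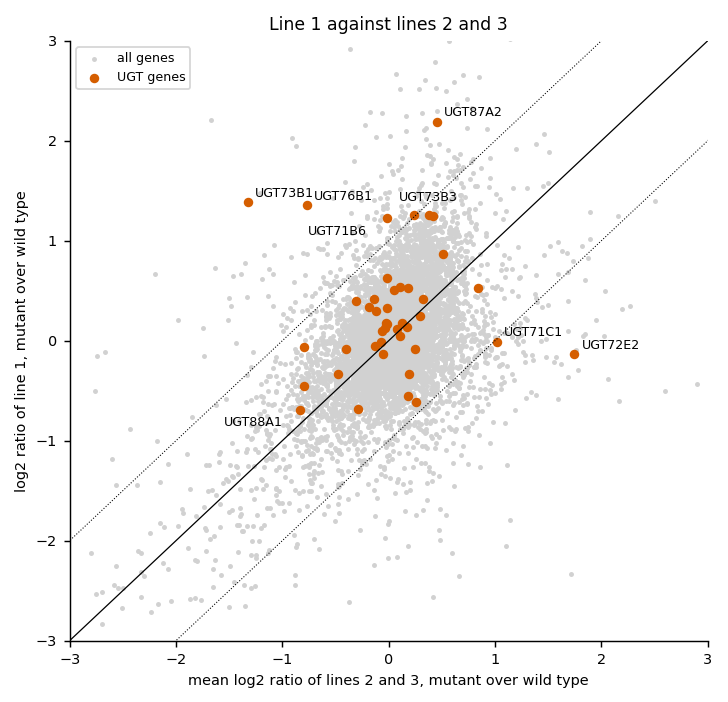
Log2 ratio of line 1 (vertical axis) against the mean log2 ratio of lines 2 and 3 (horizontal axis), mutant over wild type, for all genes (grey) and UGT genes (orange), with a line of equality and dotted lines 2-fold away from it; 33 genes of the series lie outside the axes. The 7 UGT genes outside the dotted lines are labelled, as is UGT88A1 within them: 5 are higher in line 1, and UGT72E2 and UGT71C1 are lower there.

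Lines 2 and 3 were themselves over 2-fold apart for 4 of the 43 UGT genes (9.3%), against 1.65% of all genes. UGT84B1 (AT2G23260), whose enzyme forms the glucose ester of indole-3-acetate, measured 0.42, -0.60 and 1.25 in lines 1, 2 and 3. UGT73C1 (AT2G36750), which O-glucosylates cytokinins, measured 0.53, 0.17 and 1.51, all above 0 and highest in line 3, with a mean of 0.74 ± 0.69 (limma adjusted p = 0.217). The others were UGT85A5 and the flavonol arabinosyltransferase gene UGT78D3, with means of -0.30 ± 0.60 and 0.63 ± 0.55; the value of UGT78D3 in line 2 was exactly 0. Line 2, the array of the other dye orientation, was opposite in sign to both others for 7 UGT genes (16.3%), among them UGT84B1, UGT72E3, UGT76E11 and UGT76E12, against 14.0% of all genes. Line 3 was opposite to both others for 8 (18.6%, against 10.4%), and line 1 for 9 (20.9%, against 23.9%).

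Among UGTs of phenylpropanoids and lignin precursors, 7 of 10 listed genes were measured under a UGT symbol. At the background of 3.39% of all genes called, 0 of 7 called says nothing particular to them. UGT72E2 and UGT71C1 passed without line 1, as given above, in a fit that passed 12.5% of all genes. The UGT72E enzymes glucosylate monolignols and their aldehydes. UGT72E1, for the aldehydes, measured 1.25, 0.69 and 0.15 in lines 1, 2 and 3, above 0 in each, with a mean of 0.69 ± 0.55 (limma adjusted p = 0.176), or 0.42 without line 1 (0.194). UGT72E2, for coniferyl and sinapyl alcohol, had a mean of 1.12 ± 1.09 (limma adjusted p = 0.221), and its relative UGT72E3 one of -0.07 ± 0.55. UGT72B3 was at -0.08 ± 0.04, with an interval of -0.29 to 0.13, and UGT84A4, an esterifying relative of UGT84A3, at 0.01 ± 0.31. The median of the 7 was 0.012.

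A close relative of UGT72B3 lies outside the rule because its symbol is GT72B1. This gene (AT4G01070, also UGT72B1) encodes an enzyme that glucosylates coniferyl alcohol and xenobiotic phenols, and it was named after its values were seen. It measured -1.26, -1.17 and -0.89 in lines 1, 2 and 3, lower in the mutant in each. The mean was -1.11 ± 0.19 (limma adjusted p = 0.0359). Of the 22 listed genes of phenylpropanoid and monolignol synthesis, 2 were measured. HCT, the hydroxycinnamoyl transferase of lignin synthesis, fell, with a mean of -2.40 ± 0.17 (limma adjusted p = 0.00917), and CCR2 was at -0.02 ± 0.33. USP, the 1 measured gene of 30 for the supply of UDP-sugars, was at -0.91 ± 0.36 and not called (limma adjusted p = 0.0687).

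**Figure D4:**
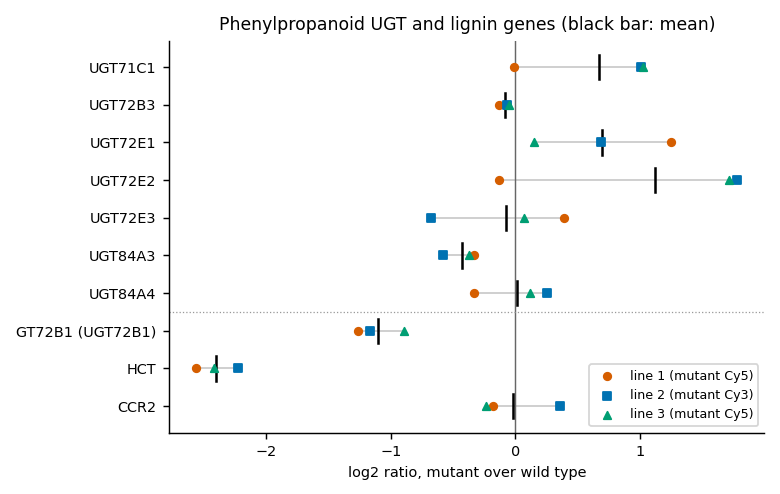
Log2 ratio of mutant over wild type (horizontal axis) in lines 1, 2 and 3 for the 7 measured UGT genes of phenylpropanoids (above the dotted line) and for GT72B1, HCT and CCR2 (below it), with a black bar at the mean. GT72B1 and HCT are below 0 in all lines, while UGT72E2 is near 0 in line 1 and over 1.7 in lines 2 and 3.

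The UGT genes of hormones had means on both sides of 0. None was called with all 3 lines, which at a background of 3.39% is no result about them. UGT74D1, UGT76C2 and UGT76B1 passed without line 1, in a fit that passed 12.5% of all genes. For auxin, 2 of 6 listed genes were measured, UGT74D1 and UGT84B1. Of the cytokinin genes, 3 of 5 were measured: beside UGT76C2 and UGT73C1, described above, UGT76C1 was at -0.06 ± 0.08, with an interval of -0.28 to 0.17. The abscisate genes UGT71B8 and UGT71C5 were at 0.04 ± 0.11 and 0.05 ± 0.32. For salicylate and benzoates, 4 of 7 were measured, and beside UGT76B1 these were UGT74F1 (-0.03 ± 0.56), which makes salicylate glucoside, UGT76D1 (0.20 ± 0.38), for dihydroxybenzoates, and UGT71C3 (0.02 ± 0.25), for methyl salicylate. UGT73C6, which acts on brassinosteroids and flavonols, was at -0.11 ± 0.05. DAO1, an auxin oxidase gene, was the 1 measured gene of 25 for hormone synthesis and turnover, at 0.53 ± 0.23 (limma adjusted p = 0.0943).

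For other substrates, UGT74B1, which adds glucose in glucosinolate synthesis, was at 0.10 ± 0.28. UGT80B1, a sterol glucosyltransferase gene, was at 0.28 ± 0.20 and above 0 in every line. Its relative SGT (UGT80A2) was at 0.04 ± 0.16, and the flavonol gene UGT79B6 (AT5G54010) at -0.09 ± 0.13. These last genes lie outside the rule by symbol, like GT72B1. Of the flavonoid genes left out, UGT79B1 had a mean of 3.26 ± 1.26 (limma adjusted p = 0.058), above every UGT gene described here. Its line values of 1.81, 3.92 and 4.05 were lowest in line 1, as were those of 8 of the 43 UGT genes and of 36.3% of all genes. The other left-out genes had smaller means, UGT78D1 at 0.39 ± 0.51, UGT75C1 at 0.19 ± 0.15 and UGT78D2 at -0.05 ± 0.80. None of the left-out genes, UGT79B1 included, was called.

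By family number, UGT73 had the most measured genes, 9 of the 10 in the gene table, of which 4 were higher on every array, 1 lower on every array and 4 mixed in sign. Their means ran from -0.42 to 0.74, with a median of 0.199. UGT73B2, UGT73B4, UGT73C2 and UGT73C7 were at 0.20 ± 0.32, 0.30 ± 0.25, 0.09 ± 0.21 and 0.13 ± 0.32. UGT71 had 8 of 10 measured, with 1 higher on every array, 1 lower and 6 mixed, and a median of 0.043. Of these, UGT71C4 was at -0.42 ± 0.24, UGT71C2 at 0.14 ± 0.06 and UGT71B1 at -0.06 ± 0.46. UGT76 had 7 of 8 measured, with a median of -0.013; UGT76E2 was at 0.16 ± 0.15, UGT76E11 at 0.04 ± 0.45 and UGT76E12 at -0.01 ± 0.48. UGT85, 4 of 6, had a median of 0.004, with UGT85A2 at 0.25 ± 0.26, UGT85A3 at 0.02 ± 0.29 and UGT85A4 at -0.01 ± 0.10. UGT89B1 was at 0.09 ± 0.22. Of the genes with a UGT symbol in the table, UGT72 had all 4 measured, with GT72B1 not counted among them. UGT74 and UGT84 had 3 each, of 5 and of 6, while neither of the 2 UGT75 genes was measured. Over all 43 genes, 10 were higher on every array (23.3%, against 26.2% of all genes), 8 were lower on every array (18.6%, against 23.9%) and 25 were mixed (58.1%, against 49.8%), including the gene with a 0.

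Many UGT genes stand in tandem, and 25 of the 43 formed 10 clusters in which neighbours had at most 2 other protein-coding genes between them. The means within a cluster had 1 sign in 3 of the 10. The widest cluster was that of UGT73B3, UGT73B2 and UGT73B1, whose means spanned 0.996 on the log2 scale. UGT73B1 was the one with a mean below 0, but that mean was -0.42 ± 1.59 and describes no line. In line 1 all of the cluster was above 0, with UGT73B3 at 1.26, UGT73B2 at 0.50 and UGT73B1 at 1.39. UGT76E12 and UGT76E11 differed least, by 0.053. UGT84A3 and UGT84A4 were 0.44 apart, and UGT71C2 and UGT71C1 0.53 apart. These differences were not tested. Neighbouring UGT genes can be similar in sequence, and how well a probe tells such copies apart was not analysed here.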

How the data were processed

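The authors deposited 1 log10 ratio of the 2 dyes per spot and array (22236 spots, 3 arrays), read as such from the values; scanner, background correction and dye normalization are not given in the sources used here, and spot intensities were not used. The median deposited value was 0 on every array, so the columns were centred or normalized by an unknown method. Array dyes came from the labels. Of the spots, 9335 had 1 listed gene, 9317 of them found in the gene table by Entrez identifier; spots of a gene were averaged, giving 9253 genes, 79 with more than 1 spot. Ratios were converted to log2, mutant over wild type. They were tested against 0 with limma (version 3.58.1, R 4.3.3, lmFit, eBayes, two-sided, Benjamini-Hochberg over all genes). The fit was also run on simulated ratios with no deviating array and no dye effect, so that run does not bear on either. Wild-type RNA was on every array, so its own spread is left out if it was 1 extract; the labels do not say whether lines came from separate plants, so p-values measure the spread between these samples. The 3 arrays limit the precision. Every UGT gene is accounted for; values per line are given for genes called, for genes of 1 sign with a mean of at least 0.5, and for the 5 of widest SD. The members and the 9 substrate and 9 gene lists were chosen with earlier results of these data known. None of the 11 listed genes of glucosinolate core synthesis was measured. No sequences were printed. The epidermis marker measured, WSD1, was at -0.03 ± 0.08.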

Additional observations from a re-analysis of the deposited data

How the results depend on the processing

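Mutant and wild type share each array, so each log ratio already pairs them. The arrays form 1 group, so no further pairing was possible. UGT genes called lower numbered 1, and 0 with a dye term, 3 at an adjusted p under 0.1 and 2 with the UGT genes under another symbol added (chosen after seeing the data). Leaving out 1 line gave 0 to 5 lower and 0 to 2 higher, 0 to 574 of all genes higher and 0 to 583 lower. The 73 genes higher in the series became 175 with scaled arrays, 140 with zeros left out, 530 at an adjusted p under 0.1 and 0 with the dye term. The 241 lower became 648 at an adjusted p under 0.1 and 0 with the dye term. Where limma called 0 genes, 1592 (dye term), 1373 (without line 2) and 1430 (without line 3) had an unadjusted p under 0.05. At least 1.5-fold on every array, the higher count was 1 with zeros left out (UGT78D3, then measured on 2 arrays) and 1 to 3 without 1 line; the lower count was 0 with ratios read as log2 and 1 to 5 without 1 line. The median over the UGT genes ran from -0.014 to 0.176 without 1 line. Of the named genes, signs turned only without a line: UGT73B1 ran from -1.32 to 0.18, UGT76B1 from -0.77 to 0.33 and UGT84B1 from -0.093 to 0.832. Centring, scaling, zeros left out, single spots and a robust prior kept the call of UGT88A1 (adjusted p from 0.031 to 0.0426). The dye term leaves 1 residual degree of freedom and a left-out line 2 arrays; other causes were not tested.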
